A study of Rattus norvegicus with 8 samples.

Results

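Genes of motile cilia were examined in cultured alveolar type II (ATII) cells of the rat, the lung epithelial cells that make surfactant. The list held 35 genes, of which 28 were found among the 18166 genes with a singly named probe set on the array. The other 7 listed symbols (Foxj1, Rsph4a, Spag6, Spag16, Spag17, Pifo and Lrrc6) named no such probe set and were not analysed here under these symbols; 2 of them (Lrrc6 and Spag6) are other names of genes given below apart from the 28. Each of the 28 genes had 1 probe set. They comprised 4 regulators and 24 genes of the axoneme, its associated microtubule proteins and its assembly.

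Total RNA was measured on 8 Affymetrix arrays. The donors were 4 Sprague Dawley males, whose age the labels do not give. Each rat gave 1 well that received AdGFP, an adenovirus for green fluorescent protein, and 1 well that received AdHIF1a, an adenovirus for a mutant HIF1a that is constitutively active (HIF1a is the subunit of the hypoxia-inducible factor that oxygen controls). For all wells the labels give 2% fetal bovine serum in the medium and 5% rat serum at plating. Cells met either virus for 3 h, at a multiplicity of infection of 20. The cells were then plated on 80% rat tail collagen and 20% Matrigel and lysed 24 h later. All wells had thus been infected; uninfected cells and the fraction of cells transduced were not analysed here. The comparison asked which of these genes change when active HIF1a is expressed. Signals are log2 values per probe set, each difference is the AdHIF1a well less the AdGFP well of the same rat, given as the estimate ± SE of a paired limma fit over 4 rats, and a gene is said to have risen or fallen where the Benjamini-Hochberg adjusted p over all 18166 genes was under 0.05.

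Motile cilia are beating, microtubule-based organelles found in bunches on the multiciliated cells of the airways, where they move mucus. Their core, the axoneme, has a ring of microtubule doublets around a central pair, with dynein arms as motors, radial spokes and the nexin-dynein regulatory complex (N-DRC) as control elements, and tektins and other proteins bound to the doublets. Commitment to this cell type is driven by Mcidas and carried out with Foxj1 and the RFX factors, which bind a promoter element called the X-box. ATII cells lie in the alveoli and are not multiciliated.

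The promoters were read because RFX binding sites are a known shared feature of ciliary genes and 2 RFX genes are among those measured. Of the 28 genes, 24 had an entry in a RefSeq promoter table of the rat assembly GRCr8, and the 250 bases before the annotated start were searched on both strands. The X-box half-site GTTGCC, which reads GGCAAC on the other strand, occurred in 10 of the 24, or 41.7%, against 9.98% of the 14564 promoters of array genes that were searched in the same way. Of these 10, the stretches are shown for 5 whose sequence lies outside the annotated span of the gene: Tekt1 and Tekt2, which fell, and Mcidas, Ccno and Dnai2, which were not called. Each is 60 bases long and written 5′ to 3′ on the strand of its gene, and the capitals mark the half-site.
Tekt1: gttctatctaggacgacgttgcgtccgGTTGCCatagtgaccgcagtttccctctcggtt
Tekt2: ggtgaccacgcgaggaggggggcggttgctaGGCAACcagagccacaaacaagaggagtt
Mcidas: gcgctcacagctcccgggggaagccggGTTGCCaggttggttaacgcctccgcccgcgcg
Ccno: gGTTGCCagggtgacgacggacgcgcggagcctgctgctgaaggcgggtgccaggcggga
Dnai2: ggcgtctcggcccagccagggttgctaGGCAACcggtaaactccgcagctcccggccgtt

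In GRCr8 these stretches are chr10:57479128-57479187 (Tekt1) and chr5:143907725-143907784 (Tekt2), both on the minus strand, and chr2:46369861-46369920 (Mcidas), chr2:46363824-46363883 (Ccno) and chr10:100258940-100258999 (Dnai2), on the plus strand. Counted from the annotated start, the half-site began at position -39 in Tekt1, -29 in Tekt2, -55 in Dnai2, -129 in Mcidas and -249 in Ccno. Rfx2, Rfx3, Hydin, Drc1 and Cfap44 also had it. Of the 6 searched genes that fell, 3 had the half-site, and of the 18 that were not called, 7 had it. A pair of half-sites, GTTNCC followed after 0 to 3 bases by GGNAAC, was in 0 of the 24 and in 0.632% of all promoters. That search allowed no mismatch. The stretches of Tekt2 and Dnai2 read gttgctaGGCAAC, where gttgct departs from GTTNCC only in its last base. That of Ccno reads GTTGCCagggtgac, where ggtgac departs from GGNAAC only in the base before its final ac. Such near matches were not counted. The forkhead site GTAAACA was in 2 of the 24 (Dnali1 and Spef2), against 2.55% of all. The hypoxia response core, ACGTG or GCGTG, was in 15 of the 24, or 62.5%, and in 45.5% of all. It was in 3 of the 6 searched genes that fell and in 12 of the 18 that were not called. ACGTG also lies within the E-box CACGTG. A match describes these letters in this window and is no measure of binding.

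Motile cilia genes were lower in the AdHIF1a wells for 8 of 28 and higher for 0. The genes that fell were Rfx3 among the regulators and Rsph9, Ccdc39, Cfap43, Tekt1, Tekt2, Cfap52 and Tppp3 among the axonemal genes. Of all genes, 7.77% were called lower, 5.68% higher and 13.4% in either direction; the 8 make up 28.6% of the 28. The differences ran from -1.23 for Tppp3, or 2.35-fold lower, to 0.34 for Cfap53, and the median was -0.28, against -0.01 over all genes. The difference was below 0 for 26 of the 28, above 0 for Cfap53 alone, and 0.00 for Mcidas; over all genes it was below 0 for 50.8%. In 15 of the 28 it was negative in each of the 4 rats, as it was in 20.4% of all genes. At an unadjusted p under 0.05, 16 of the 28 were lower and 1 higher, against 15.4% and 12.2% of all genes. The fold sizes were small, and in bulk RNA fewer ciliated cells and less RNA per cell cannot be told apart.

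The median difference of the 28 genes was -0.22, -0.30, -0.20 and -0.30 in rats 1 to 4, and 22, 24, 22 and 26 of them were negative in the respective rat. The calls rested on the rats included. Without rat 1, 6 of the 28 were called and without rat 3, 3 were; without rat 2 or without rat 4, 0 were called in limma. At an unadjusted p under 0.05, 9 were lower and 0 higher without rat 2 (11.1% and 8.43% of all genes), and 11 and 0 without rat 4 (11% and 8.74%). In these fits the share of all genes called lower was also less, at 6.78%, 3.3%, 1.35% and 1.66% without rats 1, 3, 2 and 4. The median difference of the 28 stayed between -0.32 and -0.26 in them.

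**Figure D1:**
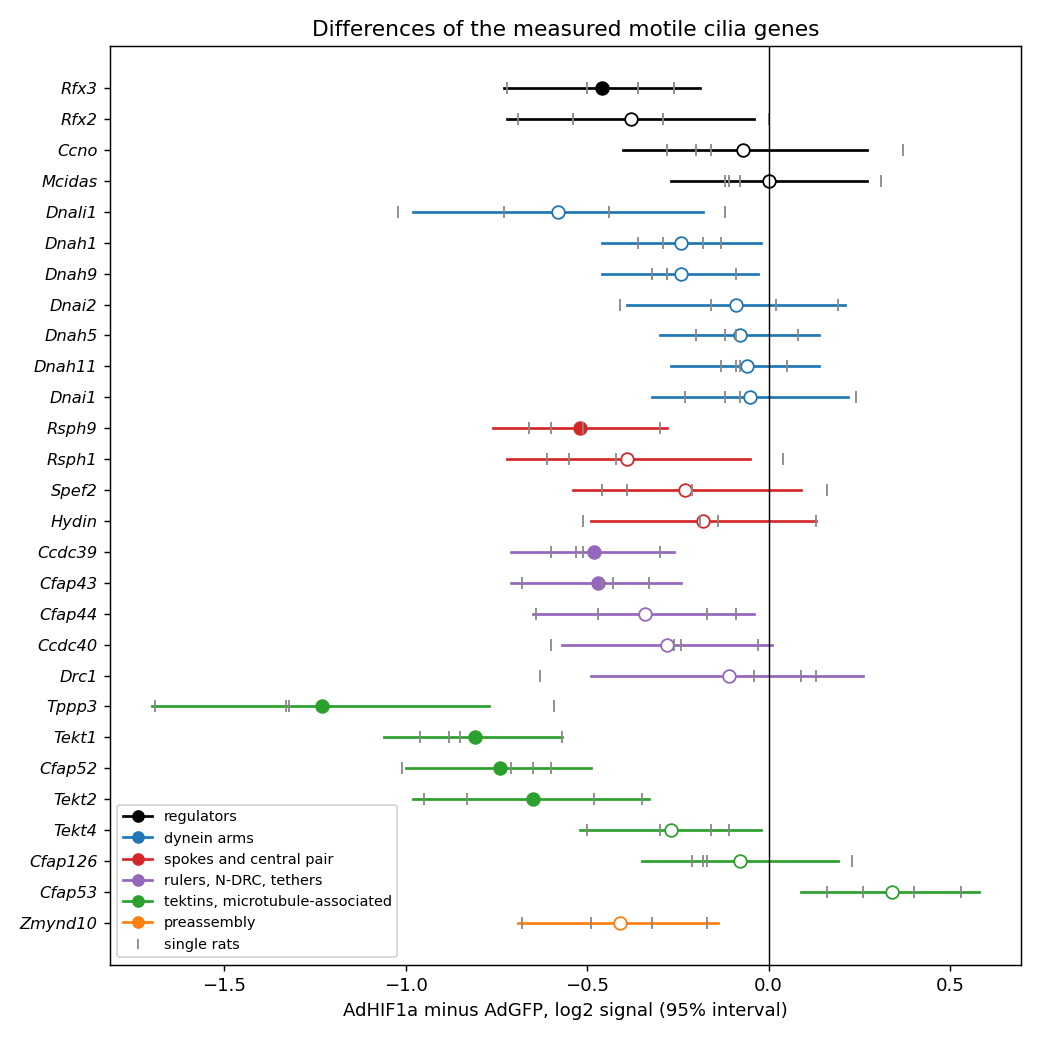
Difference of each of the 28 measured genes (x axis, AdHIF1a minus AdGFP, log2 signal), grouped by role; circles are the paired limma estimates with 95% intervals, filled where adjusted p was under 0.05, and grey ticks are the 4 rats. Filled circles number 8, all left of 0, from -1.23 for Tppp3 to -0.46 for Rfx3, and the interval of Cfap53 lies right of 0 without passing the adjusted threshold.

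Signals near the floor of the array carry little information, and the files hold no detection calls. The median of all probe sets, which was 5.00 to 5.20 on the 8 arrays, was used as a mark of dim signal. Of the 28 genes, 10 lay below it in all 8 wells (Ccno, Dnah5, Dnah11, Dnai1, Dnai2, Rsph1, Spef2, Drc1, Cfap43 and Cfap53), 11 lay above it in all 8 wells, and 7 crossed it. For the dim genes a small difference does not show that expression was alike.

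Among the 4 measured regulators, Rfx3 fell, and Rfx2, Mcidas and Ccno did not pass the threshold. The median difference of the 4 was -0.22. Rfx3, a winged-helix factor that activates ciliary genes, gave 7.16, 7.10, 7.08 and 7.02 with AdGFP in rats 1 to 4 and 6.80, 6.38, 6.82 and 6.52 with AdHIF1a (probe set 17641381). Every AdHIF1a well lay below every AdGFP well. The difference was -0.46 ± 0.11, a 1.38-fold decrease (95% interval 1.14 to 1.65, adjusted p = 0.0462). This call was close to the threshold and was lost in each fit that left out a rat, at adjusted p = 0.0777, 0.182, 0.0869 and 0.182 without rats 1 to 4, with differences from -0.53 to -0.37. It was also lost after centring each array on its median (adjusted p = 0.0604).

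Rfx2, a second RFX factor of ciliated cells, gave 6.22, 6.59, 6.71 and 6.46 with AdGFP and 6.22, 5.90, 6.17 and 6.17 with AdHIF1a. It was lower in 3 rats and equal in rat 1, and the groups touched at 6.22. The difference of -0.38 ± 0.14 did not pass (adjusted p = 0.140, 95% interval -0.72 to -0.04).

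Mcidas, a coregulator of the multiciliated programme, gave 5.86, 5.61, 5.88 and 5.89 with AdGFP and 5.74, 5.92, 5.80 and 5.78 with AdHIF1a. The group means were both 5.81, with an interval of the difference from -0.27 to 0.27. Rats 1, 3 and 4 were slightly lower and rat 2 was higher by 0.31. Ccno, a cyclin-like gene needed for making the many centrioles of these cells and the neighbour of Mcidas on chromosome 2, was dim throughout, at 4.06, 4.39, 4.12 and 3.98 against 3.90, 4.19, 4.49 and 3.70. Its difference was -0.07 ± 0.13, and no change was detectable at this signal.

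**Figure D2:**
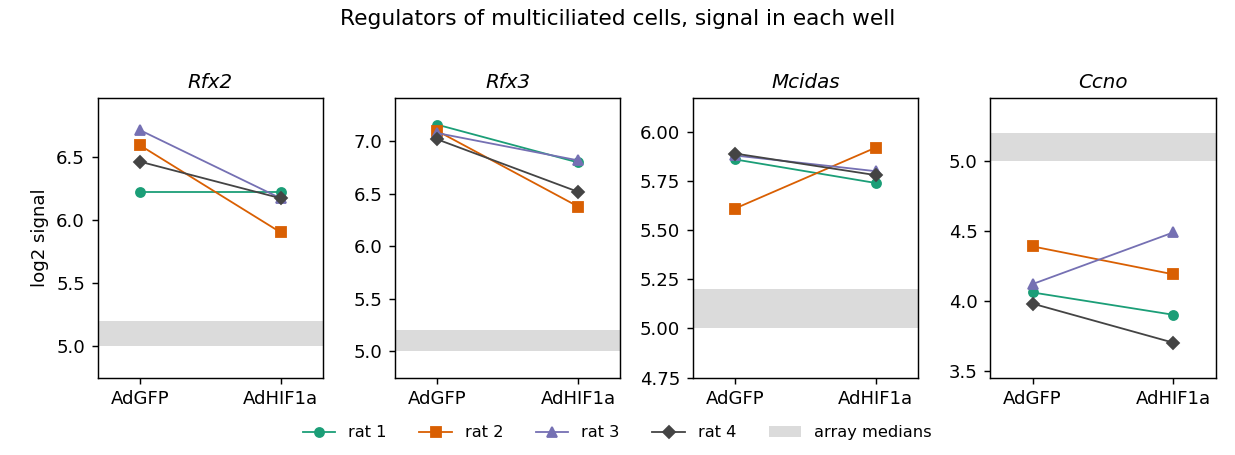
Log2 signal (y axis, own scale in each panel) of the 4 measured regulators in each well, with lines joining the 2 wells of a rat and a grey band for the range of the 8 array medians, 5.00 to 5.20. The AdHIF1a wells of Rfx3 (6.38 to 6.82) all lie below its AdGFP wells (7.02 to 7.16), Mcidas shows no common direction, and Ccno lies below the band in all wells.

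The tektins and other microtubule-associated genes had the lowest median among the role groups, with 4 of 7 lower and 0 higher at a median of -0.65. The shares called over all genes were 7.77% lower and 5.68% higher. Tppp3, a tubulin polymerization-promoting protein abundant in ciliated cells and also made by other cells, had 8.77, 9.42, 9.08 and 9.45 in the AdGFP wells and 7.44, 7.73, 8.49 and 8.13 in the AdHIF1a wells (probe set 17733095). No AdHIF1a well reached an AdGFP well. The difference was -1.23 ± 0.19 (adjusted p = 0.0144), a 2.35-fold fall with a 95% interval of 1.70 to 3.24. It was smallest in rat 3, at -0.59, against -1.33, -1.69 and -1.32 in rats 1, 2 and 4. Without rat 2 the adjusted p was 0.0661 and without rat 4 it was 0.0796.

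Tekt1 encodes a tektin, a filament protein of the doublet wall. It gave 5.51, 5.75, 5.96 and 5.84 with AdGFP and 4.94, 4.87, 5.11 and 4.88 with AdHIF1a, so that the groups were apart and all AdHIF1a wells ended below the medians of their arrays. The difference was -0.81 ± 0.10, a 1.76-fold decrease into the range of dim signal (adjusted p = 0.00831, the smallest of the 28). Without rat 2 or rat 4 the adjusted p was 0.0579 and 0.0543.

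Tekt2, a second tektin, was at 7.47, 7.36, 7.07 and 7.48 with AdGFP and at 7.12, 6.41, 6.59 and 6.65 with AdHIF1a. The groups overlapped, because rat 1 with AdHIF1a lay above rat 3 with AdGFP, but each rat was lower. The difference was -0.65 ± 0.13 (1.57-fold, adjusted p = 0.0297), with an adjusted p of 0.126, 0.0822 and 0.139 without rats 2, 3 and 4. Tekt4 differed by -0.27 ± 0.10 and did not pass (adjusted p = 0.158), with all AdHIF1a wells between 4.68 and 4.70, near the floor.

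Cfap52, a protein inside the ciliary microtubules, gave 5.75, 5.98, 5.97 and 6.32 with AdGFP and 5.04, 5.38, 5.32 and 5.31 with AdHIF1a. The groups did not overlap. It fell by 0.74 ± 0.10, or 1.67-fold (95% interval 1.40 to 2.00, adjusted p = 0.0116), and the adjusted p was 0.0578 without rat 2 and 0.0553 without rat 4. Cfap53, another microtubule inner protein that also acts in left-right patterning, was the 1 gene with the opposite sign. It gave 4.38, 4.42, 4.43 and 4.35 with AdGFP and 4.64, 4.95, 4.59 and 4.75 with AdHIF1a, higher in each rat and below the array medians in all wells. Its difference of 0.34 ± 0.10 did not pass in the paired fit (adjusted p = 0.0841) and passed without the rat as a block (adjusted p = 0.0445), with the rat as a random block (0.0352) and with a prior from the named genes only (0.0396). Cfap126, a protein of the basal body region, differed by -0.08 ± 0.11 (adjusted p = 0.695).

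**Figure D3:**
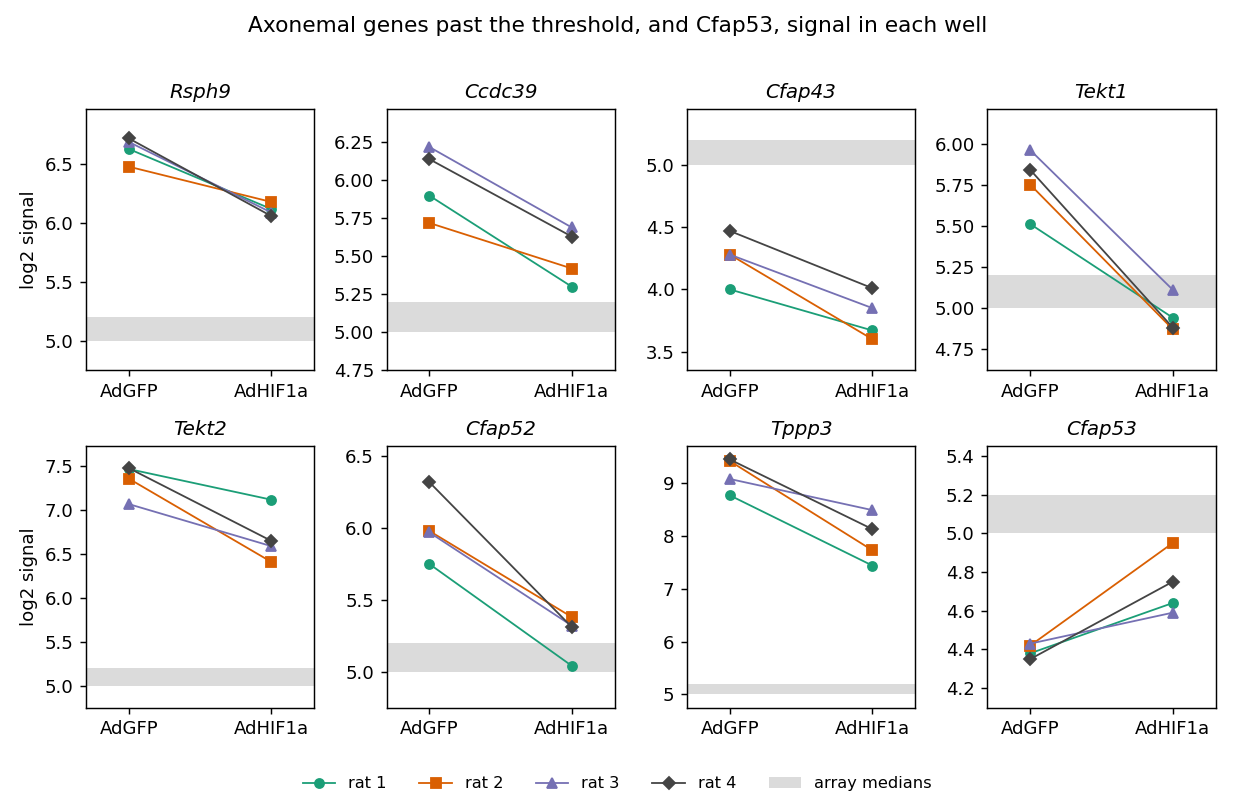
Log2 signal (y axis, own scale in each panel) of the 7 axonemal genes that fell and of Cfap53 in each well, with lines joining the 2 wells of a rat and a grey band for the range of the array medians. All 28 lines of the 7 genes slope down, those of Tppp3 from 8.77 to 9.45 down to 7.44 to 8.49, while Cfap43 and Cfap53 stay below the band throughout.

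Of the 5 measured genes for rulers, the N-DRC and tethers, Ccdc39 and Cfap43 fell. Ccdc39 forms, with Ccdc40, the ruler that sets the repeat of spokes and inner dynein arms along the doublet. Its signals were 5.90, 5.72, 6.22 and 6.14 with AdGFP and 5.30, 5.42, 5.69 and 5.63 with AdHIF1a, without overlap. The difference was -0.48 ± 0.09 (1.40-fold, adjusted p = 0.0255). The partner Ccdc40 differed by -0.28 ± 0.12 (adjusted p = 0.190). Its values were 5.46, 5.83, 5.65 and 5.59 against 5.22, 5.23, 5.62 and 5.33, lower in each rat but by only 0.03 in rat 3.

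Cfap43, part of the tether that links dynein heads to the doublet, gave 4.0, 4.28, 4.28 and 4.47 with AdGFP and 3.67, 3.60, 3.85 and 4.01 with AdHIF1a. The groups overlapped by 0.01, at a signal below the medians of the arrays in all wells. The difference of -0.47 ± 0.09 passed (adjusted p = 0.0300). Its tether partner Cfap44 differed by -0.34 ± 0.12 and the N-DRC gene Drc1 by -0.11 ± 0.15, and neither passed (adjusted p = 0.140 and 0.699). The calls of Ccdc39 and Cfap43 were lost without rat 2 (adjusted p = 0.0804 and 0.141), rat 3 (0.0965 and 0.0965) and rat 4 (0.121 and 0.129), and that of Ccdc39 also without rat 1 (0.0613).

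Among 4 measured genes of radial spokes and the central pair, Rsph9 fell. This spoke head protein had 6.63, 6.48, 6.69 and 6.72 with AdGFP and 6.12, 6.18, 6.09 and 6.06 with AdHIF1a, with a clear gap between the groups. The difference was -0.52 ± 0.10 (1.43-fold, 95% interval 1.21 to 1.69, adjusted p = 0.0253). The adjusted p was 0.0598, 0.0722, 0.0976 and 0.124 without rats 1 to 4, while the difference stayed between -0.59 and -0.47. Rsph1, another spoke protein, differed by -0.39 ± 0.13 and passed only when rat 1, in which it did not fall, was left out (adjusted p = 0.131 with all rats and 0.0405 without rat 1). The central pair genes Spef2 and Hydin differed by -0.23 ± 0.13 and -0.18 ± 0.12, with rat 3 opposite to the other rats in both.

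Of the 7 measured dynein arm genes, 0 were called in limma, and 3 were lower at an unadjusted p under 0.05, against 15.4% of all genes. Dnali1, a light intermediate chain of the inner arms, had the largest difference, at -0.58 ± 0.16 (adjusted p = 0.0764), which passed with the filter at the median signal (0.0484) and with a prior from the named genes only (0.0308). Its values were 5.64, 6.03, 6.23 and 6.43 with AdGFP and 5.20, 5.30, 6.11 and 5.41 with AdHIF1a. Rat 3 changed by only -0.12 and rat 4 by -1.02, and the groups overlapped. The heavy chain genes Dnah1 (inner arm) and Dnah9 (outer arm) each differed by -0.24 ± 0.09, with adjusted p = 0.144 and 0.141, and were lower in each rat. Dnah5, Dnah11, Dnai1 and Dnai2, genes of outer arm chains, lay below the array medians in all wells, at differences from -0.09 to -0.05.

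Zmynd10, a cytoplasmic factor needed to assemble dynein arms before they enter the cilium, gave 6.11, 5.82, 6.21 and 6.35 with AdGFP and 5.43, 5.65, 5.72 and 6.03 with AdHIF1a. It was lower in each rat, with overlapping groups. The difference of -0.41 ± 0.11 did not pass (adjusted p = 0.0700). It passed with quantile normalization (adjusted p = 0.0216), with median-centred arrays (0.0354), once dim probe sets were filtered at the median signal (0.0391) and with a prior from the named genes only (0.0292). Dnaaf11, the current name of the gene listed as Lrrc6 and another such factor, differed by -0.21 ± 0.09 (adjusted p = 0.193), and Spag6l, a central pair gene to which the reference table also gives the name Spag6, by -0.29 ± 0.11 (adjusted p = 0.158).

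Over the 28 genes, the groups did not overlap for 8 that were lower (Rfx3, Dnah1, Rsph9, Ccdc39, Tekt1, Tekt4, Cfap52 and Tppp3) and 1 that was higher (Cfap53), against 12.2% and 10.3% of all genes.

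Other ciliary genes were read from lists of related genes. Of 57 measured further axonemal and assembly genes, 10 fell and 0 rose, or 17.5% lower, with a median of -0.19. Of all genes, 7.77% were called lower and 5.68% higher. Spag1 and Dnaaf3, both cytoplasmic assembly factors of dynein arms, fell by 1.05 ± 0.13 and 0.69 ± 0.09 (both adjusted p = 0.00901). Spag1 went from 6.32 to 6.83 in the AdGFP wells to 5.39 to 5.55 in the AdHIF1a wells. Ccdc65, an N-DRC subunit, fell by 0.61 ± 0.09 and the dynein light chain gene Dnal1 by 0.55 ± 0.08. Tekt5, a tektin best known from sperm, had the largest fall, 1.49 ± 0.29 (adjusted p = 0.0273), from a mean of 6.80 ± 0.34 to 5.30 ± 0.43 (SD), with 2 AdHIF1a wells below the medians of their arrays. Without rat 2, 0 were called in limma, and without rats 1, 3 and 4 the list had 7, 4 and 1 calls. At an unadjusted p under 0.05, 12 of the 57 were lower and 0 higher without rat 2 (11.1% and 8.43% of all genes). Spag1 was at adjusted p = 0.0579 without rat 2.

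Genes of intraflagellar transport, which carries cargo in primary as well as motile cilia, were lower for 7 of 22 and higher for 1, or 31.8% and 4.55%. All 22 lay above the array medians in all wells, and of all such genes 11.9% were called lower and 8.35% higher. Ttc21b, of the retrograde complex, fell by 0.60 ± 0.09 (adjusted p = 0.0125), and Ift81 and Ift80, of the anterograde complex, by 0.49 ± 0.08 and 0.66 ± 0.11. Dync2li1, a chain of the retrograde dynein motor, fell by 0.73 ± 0.13. Ift74, the binding partner of Ift81, rose by 0.52 ± 0.10 (adjusted p = 0.0251) and was named after its value was seen. The rise of Ift74 was lost in each fit that left out a rat (adjusted p = 0.0598, 0.0827, 0.0812 and 0.124 without rats 1 to 4), and median centring left 0 of the list called higher. The calls were 6 without rat 1 and 0 in limma without rat 2, 3 or 4. At an unadjusted p under 0.05, 7 were lower and 1 higher without rat 2 (11.1% and 8.43% of all genes). Without rat 4, 8 were lower and 1 higher (11% and 8.74%). These shares include dim genes.

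Of 30 measured genes of the primary cilium and its base, 4 were called lower and 2 higher, or 13.3% and 6.67%. These shares are near those of all genes above the array medians in all wells (11.9% and 8.35%), to which 29 of the 30 belong. Bbs1, a subunit of the BBSome cargo adaptor, fell by 0.60 ± 0.09 and Tmem67, a membrane protein of the transition zone, by 0.53 ± 0.11, as did, named after their values were seen, the BBSome chaperone genes Bbs10 and Bbs12 (-0.38 ± 0.08 and -0.41 ± 0.09). Ahi1, of the transition zone, rose by 0.80 ± 0.10 (adjusted p = 0.00910) and the BBSome subunit gene Bbs5 by 0.55 ± 0.11. The calls were 2, 0, 3 and 0 in limma without rats 1 to 4. At an unadjusted p under 0.05, 5 were lower and 3 higher without rat 2 (11.1% and 8.43% of all genes). The counts were the same without rat 4 (11% and 8.74%). These shares include dim genes.

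Of 17 measured genes of multiciliation and centriole formation, 1 fell and 0 rose, or 5.88% lower, near the 7.77% of all genes. At an unadjusted p under 0.05, 5 were lower (Cetn2, Deup1, Ccdc78, Stil and Pcm1) and 1 was higher (Cep63). The shares of all genes were 15.4% and 12.2%. Deup1 lay below the array medians in all wells. Cetn2, a centrin of basal bodies, went from 8.46 ± 0.11 to 7.82 ± 0.15 (SD), a difference of -0.64 ± 0.12 (adjusted p = 0.0261), which was lost without rat 2 (0.123), rat 3 (0.0843) or rat 4 (0.122). Stil, a centriole duplication gene, differed by -0.52 ± 0.17 below the array medians (adjusted p = 0.115). The list's median was 0.10.

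**Figure D4:**
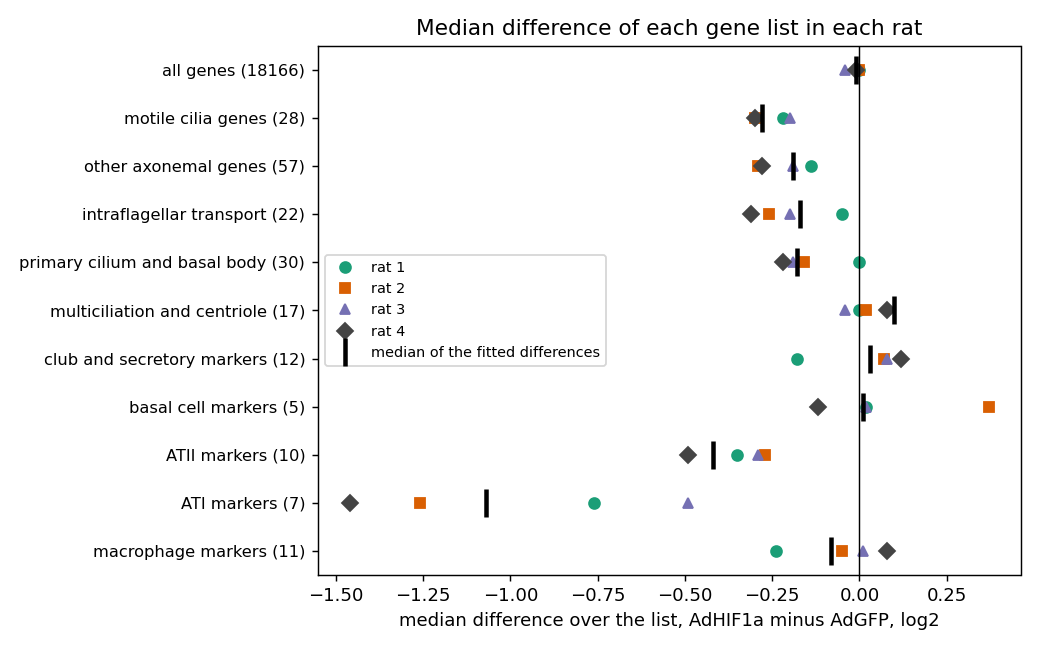
Median difference (x axis, AdHIF1a minus AdGFP, log2 signal) over each gene list in each of the 4 rats (symbols) and of the fitted differences (black bars), with the number of measured genes in brackets. The motile cilia genes lie between -0.30 and -0.20 in all 4 rats, markers of alveolar type I (ATI) cells lie lower, from -1.46 to -0.49, and the median over all genes lies between -0.04 and 0.00.

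Markers of other cells were read beside these results. Of all genes, 7.77% were called lower and 5.68% higher, and of those above the array medians in all wells, 11.9% and 8.35%. At an unadjusted p under 0.05, 15.4% of all genes were lower and 12.2% higher. Of the 10494 genes above the array medians in all wells, 2335 were lower and 1768 higher at that p. All 10 measured ATII markers lay above the array medians in all wells, and 4 of them fell and 2 rose. Those that fell were Napsa (-1.52 ± 0.18), a protease that processes surfactant proteins, Lpcat1 (-0.80 ± 0.15), an enzyme of surfactant lipid synthesis, Lamp3 (-0.78 ± 0.13) and the lung transcription factor gene Nkx2-1 (-0.44 ± 0.08). The surfactant protein genes Sftpa1 and Sftpb rose by 0.89 ± 0.10 and 0.69 ± 0.11, and Sftpc differed by 0.28 ± 0.08 (adjusted p = 0.0840). Slc34a2 and Abca3 differed by -0.82 ± 0.22 and -0.39 ± 0.11 (adjusted p = 0.0700 and 0.0773), both lower in each rat. At an unadjusted p under 0.05, 6 of the 10 were lower and 3 higher.

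Of the club and secretory cell markers, 1 of 12 fell (Cyp4b1, -1.19 ± 0.24) and 0 rose, with 3 lower and 2 higher at an unadjusted p under 0.05. The shares of all genes at that p were 15.4% and 12.2%. Cyp2b1 differed by -1.19 ± 0.34, lower in each rat without overlap (adjusted p = 0.0846), Muc5b by -0.37 ± 0.13, Bpifa1 by 0.49 ± 0.13 and Bpifb1 by 0.47 ± 0.12. Scgb1a1, the main club cell secretory gene, differed by 0.04 ± 0.11. The summed linear signal of the 12 ran from 7404 to 7977 in the AdGFP wells and from 6455 to 8717 in the AdHIF1a wells, but Scgb1a1 alone made up 80.1% to 85.8% of it. Scgb3a2, Cyp2f4 and Agr2 were below the array medians throughout. For the 28 motile cilia genes that sum ran from 1707 to 2133 and from 1200 to 1504, without overlap, of which Tppp3 made up 25.6% to 33.9% and 14.5% to 23.9%.

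Of the 5 basal cell markers, 0 were called in limma, and 1 was lower (Krt15) and 2 were higher (Ngfr and Dapl1) at an unadjusted p under 0.05. The shares of all genes at that p were 15.4% and 12.2%. Krt15 differed by -0.75 ± 0.20, Ngfr by 0.37 ± 0.09 and Dapl1 by 0.30 ± 0.11. The sum of the 5 was 184 to 241 with AdGFP and 200 to 220 with AdHIF1a, and Tp63 and Dapl1 lay below the array medians. Of the macrophage markers, 1 of 11 fell (Adgre1, below the array medians) and 0 rose, with 3 lower and 1 higher at an unadjusted p under 0.05. Mrc1 differed by -0.82 ± 0.21 and Ptprc by -0.27 ± 0.10, both lower in each rat, and Lyz2 by 0.30 ± 0.10. Their sums were 6463 to 8067 and 7697 to 9104, of which Lyz2 made up 80.1% to 93.5%, so that the sums mainly followed this gene. Cd163, C1qb and C1qc lay below the array medians in all wells. Endothelial, fibroblast, mesothelial and neuroendocrine markers had 0 calls of 4, 6, 3 and 2, and 0, 0, 1 and 0 at an unadjusted p under 0.05. Markers of ATI cells, the flat cells of gas exchange, fell for 5 of 7, or 71.4%, against 7.77% of all genes. Their sums were 12408 to 17318 with AdGFP and 5531 to 9147 with AdHIF1a. Their part in the differences of the ciliary genes was not tested.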

How the data were processed

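The deposited table holds log2 signals of 36685 probe sets on 8 arrays, made by the authors with Affymetrix Expression Console per the submitters' processing notes; algorithm, version and genome build: not given in the sources used here. They ran from 1.42 to 13.57, from which their log2 scale was inferred. Probe sets with 1 gene symbol in the platform annotation (18511) gave 18166 genes, with the highest mean over the arrays standing for a gene. No filter or rescaling was applied. limma 3.58.1 in R 4.3.3 was fitted to all probe sets with rat as fixed block; two-sided p-values were adjusted over the genes. Pairing follows the labels and design, 1 well of each virus per rat and extraction day. Deviations from the group means correlated at 0.18 to 0.26 within rats and at -0.22 to 0.08 between them. Taking out the group means lowers the values between rats when those within rats are positive, so part of this contrast is built in. Rat and day cannot be told apart. The fit was tested on simulated data in which 200 of 18166 genes changed, by 1 or 2 in log2. Of these changes, 73% and 95% were recovered, with 2 false calls. In the real data 13.4% of genes were called. The adjusted threshold depends on the share of changed genes, so recovery there may differ. Smaller changes, such as those of most genes here, were not simulated. The number of arrays limits the precision.

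The genes and lists were chosen with earlier results of these data known. Named were the 4 regulators, the members called, the 4 with the highest signal and the 4 with the largest difference; in each related list, the 4 called genes with the smallest adjusted p and the 2 largest differences. Well values of Dnali1, Ccdc40, Cfap53 and Zmynd10 were added after they were seen. Alternatives were no block, a random block, quantile normalization, median centring, 2 filters on dim probe sets, a trended and robust prior, the mean of a gene's probe sets, an adjusted p under 0.01, synonyms, leaving out each rat, and, chosen after seeing the data, a prior from the named genes only. Promoter sequences are from RefSeq (GRCr8); the motifs, known sites, were chosen after the data had been seen.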

Additional observations from a re-analysis of the deposited data

Results flagged for a closer look

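In 56 sets of 4 wells (28 genes, 2 viruses), 2 held a well far from the other 3 by Dixon's criterion, and chance alone flags about 1 in 20 such sets. Rfx2 was 5.90 in the AdHIF1a well of rat 2, against 6.17 to 6.22 in the other 3. Mcidas was 5.61 in the AdGFP well of rat 2, against 5.86 to 5.89 in the other 3. Without rat 2 the difference of Rfx2 was -0.28 (adjusted p = 0.413) and that of Mcidas -0.10 (adjusted p = 0.693).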

How the results depend on the processing

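Of 379 recomputed values of the 28 genes, 333 kept their side of the threshold with no turn of sign, 32 lost and 10 gained a call, and 4 changed sign. Mcidas, at 0.00, has no direction to keep and counts among the 333; it ran from -0.10 (without rat 2) to 0.04 and was not called in any. Those that changed sign were uncalled genes near 0, whose differences with a rat left out ran from -0.21 to 0.00 (Ccno, highest without rat 4), -0.18 to 0.02 (Dnai2, rat 4), -0.14 to 0.01 (Dnai1, rat 3) and -0.19 to 0.06 (Drc1, rat 3). Without a rat, calls ranged over 561 to 2006 for all genes, 0 to 6 for the 28 genes, 0 to 0 for regulators, 0 to 6 for axonemal genes, 0 to 3 for multiciliation, 0 to 7 for other axonemal, 0 to 6 for intraflagellar transport and 0 to 3 for primary cilium genes, and the axonemal median over -0.33 to -0.26. At an adjusted p under 0.01, calls were 656 for all genes, 1 for the 28 (Tekt1, axonemal), 0 for regulators, multiciliation and intraflagellar transport, 2 for other axonemal and 1 for primary cilium genes. Median centring left 0 regulators and 5 intraflagellar transport genes called; no replicate block or a random block gave 2 multiciliation genes, the random block 10 primary cilium genes, and a prior from the named genes only 3674 genes in all and 3 of multiciliation. Without the replicate block 9 of the 28 were called, the 8 and Cfap53, which rose. Quantile normalization and median centring each moved the median of the 28 and of the axonemal genes to -0.36, and shifted that of all genes to -0.044 and -0.087. The filter at the median of all probe sets kept 15 of the 28, at medians of -0.46, of -0.38 for regulators and of -0.50 for axonemal genes. Dim signal limits the 10 genes below the array medians.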
